A study of Mus musculus with 9 samples.

Results

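The nuclear genes of the respiratory chain and of ATP synthase were measured in B16 mouse melanoma cells that were left at rest, strained cyclically or treated with blebbistatin, an inhibitor of myosin II. Their members were chosen by name, as every symbol starting with Ndufa, Ndufb, Ndufc, Ndufs, Ndufv, Sdha to Sdhd, Uqcr, Cox4i, Cox5, Cox6, Cox7, Cox8 or Atp5, with names containing -ps left out. This gave 97 of 22972 gene names, of which 89 had a mean of at least 1 FPKM (fragments scaled by transcript length and by library size) and were tested among 10109 genes. By complex, 44 members belonged to complex I, 8 to complex II, 8 to complex III, 20 to complex IV and 17 to complex V, and 44, 8, 8, 13 and 16 of them were tested. The name rule also took in 12 assembly factors, which help to build a complex and are not part of it (8 named Ndufaf and 4 named Sdhaf), so the members are wider than the subunits themselves.

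B16 is an established mouse melanoma cell line, described in the labels as wild type, and all cells were grown on PDMS film in DMEM with fetal bovine serum. Control cells (CTL) received no straining, MS cells were strained cyclically for 72 h, and the third group received blebbistatin at 100 ng/mL for 72 h. The labels name blebbistatin alone for this last group, called Blebb here, whereas the study's methods add cyclic straining to it. Each group held 3 RNA-seq libraries, all from day 3 and numbered as parallel experiments 1 to 3, with nothing said of separate cultures, so that p-values measure the spread between these samples, which may be technical.

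In the respiratory chain, complexes I and II pass electrons from NADH and succinate to ubiquinone, complex III passes them to cytochrome c and complex IV to oxygen, while complexes I, III and IV pump protons across the inner mitochondrial membrane. Complex V, the ATP synthase, lets the protons flow back through its membrane part Fo and makes ATP in its head F1. A few core subunits of complexes I, III, IV and V are encoded by mitochondrial DNA, and all others, with all of complex II, by nuclear genes whose transcription is known to draw on factors such as NRF1, the ETS family factor GABP and YY1.

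Of the promoters below, those of Sdhb, Uqcrc1, Ndufs7 and Atp5g2 are shown because they hold letters of such motifs, and those of Atp5g3 and Cox7a2l because their levels are set beside those of related genes further on. The RefSeq table for GRCm38.p6 (250 bases before to 50 bases after the start) held a promoter for 80 of the 97 members. The motifs were searched on both strands as GCGCATGC for NRF1, CCGGAAG for ETS factors, AAGATGGC for YY1 and TATAAA for the TATA box. Capitals mark matches to the first 3 of these. Sdhb, the iron-sulfur subunit of complex II (chr4:140961021-140961320, plus strand), held an NRF1 match at -54 to -47 and an ETS match at 7 to 13 from its start. Uqcrc1, a core protein of complex III (chr9:108936398-108936697, plus strand), held a pair of overlapping NRF1 matches from 31 to 40. Ndufs7, an iron-sulfur subunit of complex I (chr10:80249199-80249498, plus strand), held a YY1 match at 25 to 32. Atp5g2 (chr15:102670998-102671297, minus strand) and Atp5g3 (chr2:73911277-73911576, minus strand) encode the same c subunit of the Fo rotor, and only the first of the pair held a match, an overlapping NRF1 pair from -42 to -33. Cox7a2l, a factor that joins complexes III and IV into supercomplexes (chr17:83514284-83514583, minus strand), held none in this window.
Sdhb: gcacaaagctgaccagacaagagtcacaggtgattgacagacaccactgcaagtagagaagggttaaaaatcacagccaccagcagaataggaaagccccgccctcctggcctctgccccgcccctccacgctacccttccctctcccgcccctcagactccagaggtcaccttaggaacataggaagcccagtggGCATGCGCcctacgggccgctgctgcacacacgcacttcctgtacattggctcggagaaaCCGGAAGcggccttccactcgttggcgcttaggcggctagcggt
Uqcrc1: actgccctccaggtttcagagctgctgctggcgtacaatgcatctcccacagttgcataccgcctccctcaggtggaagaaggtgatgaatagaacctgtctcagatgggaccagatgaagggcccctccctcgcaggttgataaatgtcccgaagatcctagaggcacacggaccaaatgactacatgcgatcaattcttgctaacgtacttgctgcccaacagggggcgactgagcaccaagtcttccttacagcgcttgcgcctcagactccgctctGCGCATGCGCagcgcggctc
Ndufs7: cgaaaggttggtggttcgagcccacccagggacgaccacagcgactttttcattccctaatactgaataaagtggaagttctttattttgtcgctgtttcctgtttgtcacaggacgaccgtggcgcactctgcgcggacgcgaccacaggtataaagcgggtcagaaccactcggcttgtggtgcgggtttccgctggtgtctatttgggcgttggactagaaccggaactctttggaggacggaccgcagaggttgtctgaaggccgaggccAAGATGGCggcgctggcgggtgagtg
Atp5g2: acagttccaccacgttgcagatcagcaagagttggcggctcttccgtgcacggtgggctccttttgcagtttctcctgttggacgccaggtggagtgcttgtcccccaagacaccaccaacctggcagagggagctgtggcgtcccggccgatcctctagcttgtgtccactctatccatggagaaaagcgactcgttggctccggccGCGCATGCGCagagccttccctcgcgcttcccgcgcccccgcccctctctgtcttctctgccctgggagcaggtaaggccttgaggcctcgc
Atp5g3: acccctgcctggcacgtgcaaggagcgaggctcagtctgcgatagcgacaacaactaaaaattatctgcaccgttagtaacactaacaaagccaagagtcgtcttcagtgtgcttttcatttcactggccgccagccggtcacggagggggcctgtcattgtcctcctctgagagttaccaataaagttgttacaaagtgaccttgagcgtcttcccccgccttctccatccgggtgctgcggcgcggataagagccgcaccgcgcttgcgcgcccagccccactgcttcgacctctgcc
Cox7a2l: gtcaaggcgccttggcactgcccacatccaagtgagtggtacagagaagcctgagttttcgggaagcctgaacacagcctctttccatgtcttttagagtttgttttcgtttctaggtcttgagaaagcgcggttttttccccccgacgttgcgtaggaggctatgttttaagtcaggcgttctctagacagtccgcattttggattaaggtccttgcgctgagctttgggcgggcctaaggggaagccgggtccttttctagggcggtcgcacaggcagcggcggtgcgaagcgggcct

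A gene was counted once if any of its promoter windows held a match. The NRF1 letters were found for 12 of the 80 members (15%), for 3.05% of 27025 genes with a promoter in RefSeq and for 6.79% of 7908 such genes that were tested here. The 12 genes were Atp5g2, Atp5k, Atp5l, Cox6a1, Ndufa6, Ndufa8, Ndufa11, Ndufaf4, Ndufaf5, Sdhb, Uqcr11 and Uqcrc1, and so covered all 5 complexes. The ETS letters stood in 22 members (27.5%, against 9.93% of all these genes and 23.1% of the tested ones), and the YY1 letters in 11 members (13.8%, against 3.19% and 6.06%). At least 1 of the 3 was present in 38 members (47.5%, against 14.9% and 32.4%), and NRF1 and ETS letters together in 5, namely Atp5k, Atp5l, Cox6a1, Sdhb and Uqcr11. TATA box letters were found in 9 members (11.3%) and in 15.7% of all and 7.64% of tested genes with a promoter. These are matches of letters in a fixed window and no measure of binding.

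The cells carried the markers of their label. All 8 melanocyte markers were expressed, with a summed level of 7640 to 13445 FPKM per library. The 6 fibroblast markers summed to at most 0.567 FPKM with 3 of them at 0 in every library, the 6 keratinocyte markers to at most 0.0314 FPKM with 4 at 0, and the 6 macrophage markers to between 2.10 and 4.32 FPKM with 2 at 0. The columns summed to between 439939 and 484093 FPKM, 9529 to 10388 genes reached 1 FPKM in a library, and the depth is unknown. On the first principal component of all tested genes (70.4% of the variance), CTL replicate 1 at -42.1 and Blebb replicate 2 at -43.9 stood apart from the other 7 libraries, which lay between -10.0 and 35.8. The same 2 libraries and MS replicate 3 had the highest sums of 12 integrated stress response genes (1799, 1811 and 1422 FPKM, against 786 to 1138 in the other 6). Their sums of the melanocyte markers were the highest too (13445, 12206 and 12384 FPKM, against 7640 to 9277). Not every marker followed this sum. Mitf and Mlana had their 2 lowest values in CTL replicate 1 (9.50 and 970 FPKM) and Blebb replicate 2 (8.51 and 1072 FPKM). Some of the fold changes, counts and correlations that rest on CTL replicate 1, Blebb replicate 2 and MS replicate 3 are also given without them. Others, among them the medians and correlations by complex, are given for all 9 libraries only.

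Messages of these genes were abundant. The 89 tested members had a median level of 143 FPKM over all libraries, against 10.4 FPKM for all 10109 genes tested, and 59 of the 97 members reached a mean of 100 FPKM. The levels spanned from 1.99 FPKM for Sdhaf3 to 1797 FPKM for Atp5b. FPKM are scaled by length, so levels of genes can be set beside each other, but only roughly. A bias of a gene that all libraries share, such as one from base composition, would not show in its range over libraries. Their median coefficient of variation between libraries was 13.5%, against 18.6% for all genes tested, the lowest at 6.55% for Atp5h, a subunit of the ATP synthase stalk, and the highest at 42.6% for Ndufa4l2. The plot of levels by complex shows the gap between assembly factors and subunits. All 12 assembly factors lay under 35 FPKM, whereas among the other 77 tested members Ndufs4 and Ndufa4l2 alone did.

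**Figure D1:**
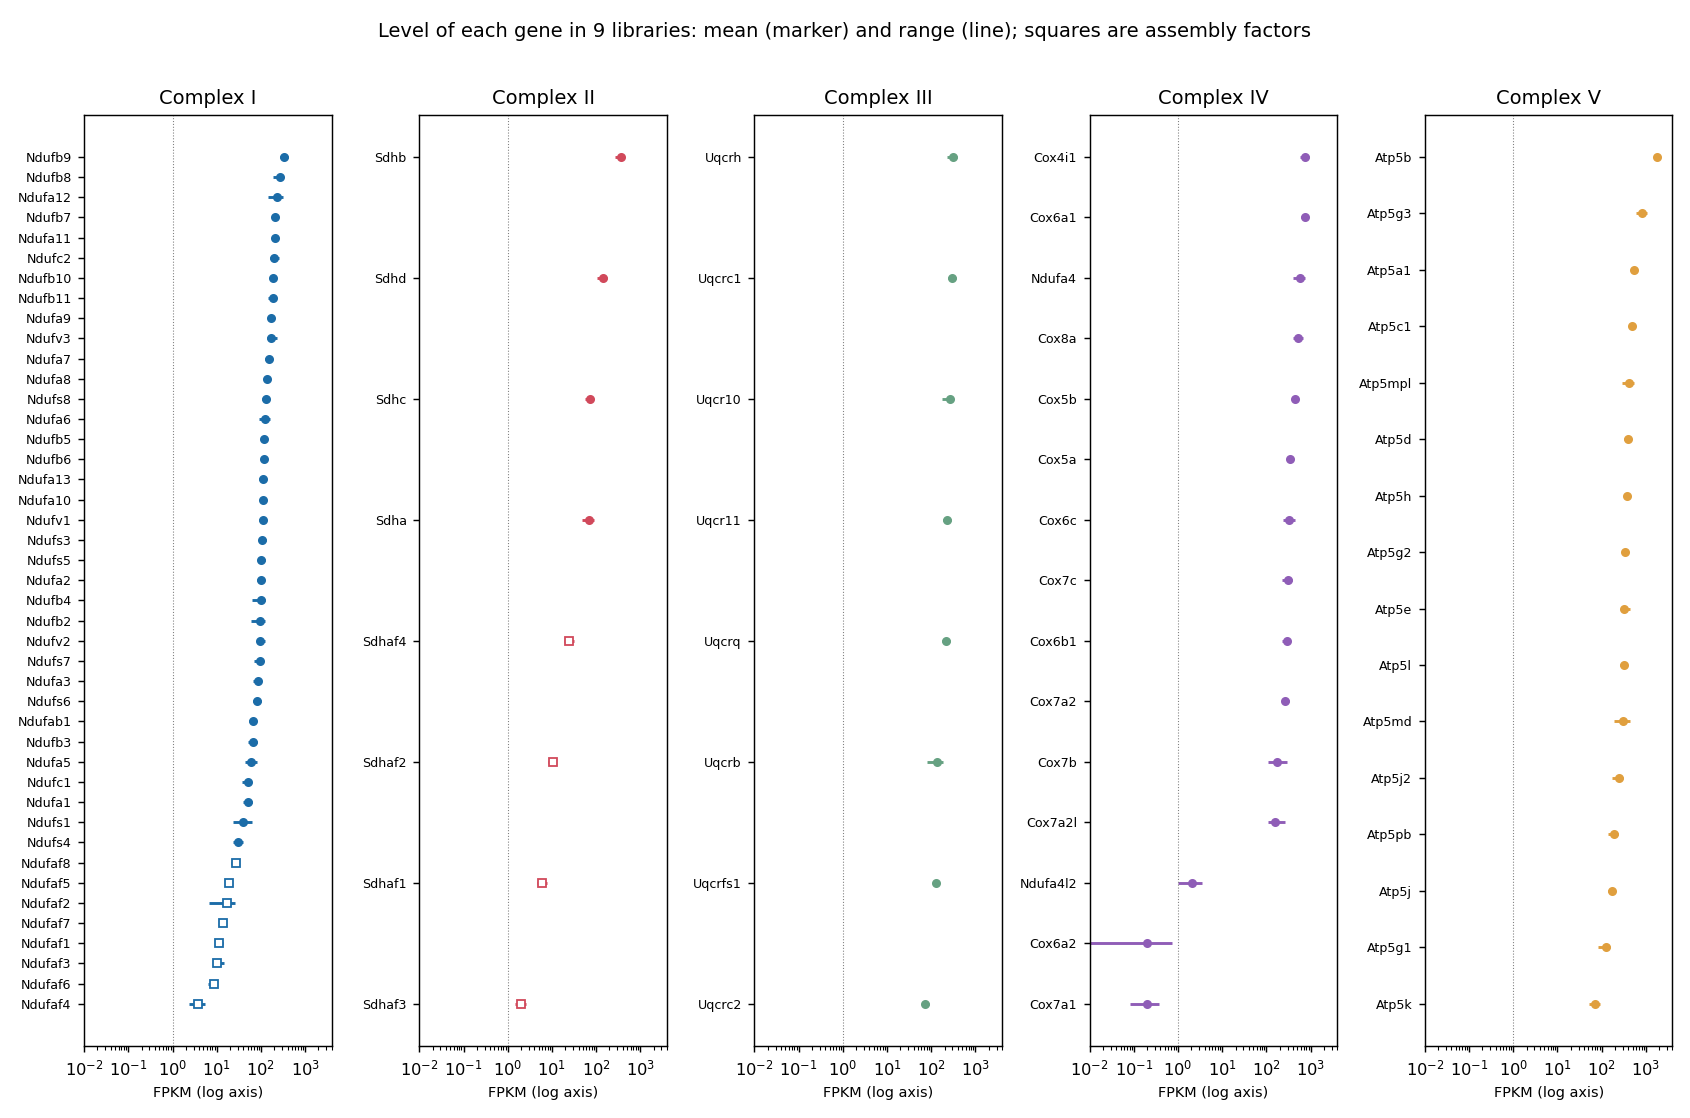
Level of 90 members with a value above 0 (1 more is not drawn) in FPKM on a log axis, by complex, where markers are means and lines the range over 9 libraries, circles are subunits and squares assembly factors, and the dotted line stands at the minimum of 1 FPKM. Assembly factors sit below nearly all subunits, Atp5b stands highest at 1797 FPKM, and the line of Cox6a2, which is at 0 in some libraries, is cut at the left edge.

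In complex I, the NADH dehydrogenase, the core subunits carry the flavin and the iron-sulfur clusters. Ndufs1, which holds several of these clusters, was the lowest of them at 40.3 ± 13.3 FPKM (SD, n = 9 libraries). Ndufs8 (128 FPKM), Ndufv1 (109 FPKM), Ndufs3 (107 FPKM), Ndufv2 (97.3 FPKM) and Ndufs7 (96.0 FPKM) lay close together with overlapping ranges. The 29 supernumerary subunits, which surround this core, had a median of 118 FPKM and reached 331 ± 48.1 FPKM for Ndufb9 and 267 ± 43.1 FPKM for Ndufb8, which head the complex without a gap between them. The 8 assembly factors were low, from 3.85 FPKM for Ndufaf4 to 27.8 FPKM for Ndufaf8. Of all neighbours in the order of the 44 levels, Ndufaf6 and Ndufaf4 at its end were the only ones whose ranges did not overlap.

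Of the 4 subunits of complex II, succinate dehydrogenase, the first 3 formed steps in measured level. Sdhb, the iron-sulfur subunit, stood at 357 ± 45.7 FPKM, Sdhd, a membrane anchor, at 143 ± 24.5 FPKM, Sdhc, the other anchor, at 72.1 ± 8.15 FPKM and Sdha, the flavoprotein that oxidizes succinate, at 68.3 ± 14.4 FPKM. The ranges of Sdhb, Sdhd and Sdhc did not overlap with one another, while Sdhc and Sdha could not be separated. The ratio of Sdhb to Sdha was 5.51 ± 1.61 and moved from 3.13 in MS replicate 3 to 8.09 in Blebb replicate 1. The 4 assembly factors followed at 24.3 FPKM for Sdhaf4, 10.4 FPKM for Sdhaf2, 5.86 FPKM for Sdhaf1 and 1.99 FPKM for Sdhaf3, each step again without overlap.

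In complex III, the cytochrome bc1 complex, Uqcrh, the hinge protein, stood at 314 ± 56.5 FPKM and Uqcrc1, a core protein, at 299 ± 36.1 FPKM. Uqcrfs1, the Rieske iron-sulfur protein that takes part in electron transfer, was at 128 ± 8.47 FPKM and the least variable of the complex (coefficient of variation 6.62%). Uqcrc2, the second core protein, was the lowest at 71.6 ± 6.78 FPKM, and its range lay wholly below that of Uqcrfs1. Cyc1, the cytochrome c1 of this complex whose name falls outside the rule, was at 263 ± 35.7 FPKM.

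In complex IV, cytochrome c oxidase, the 11 ubiquitous subunits ranged from 174 FPKM for Cox7b to 752 ± 117 FPKM for Cox4i1, a regulatory subunit. Cox6a1 (744 ± 91.6 FPKM), Ndufa4 (568 ± 119 FPKM, named after complex I and now counted to complex IV) and Cox8a (512 ± 88.0 FPKM) followed without a gap. Cox5b at 440 ± 33.6 FPKM and Cox5a at 339 ± 23.7 FPKM did not overlap, but the counting of Cox5b is uncertain, since the near-identical Cox5b-ps was listed beside it at 93.5 ± 6.65 FPKM. The forms known from other tissues were listed at 0 or had low values. Of 8 such isoforms, Cox4i2, Cox6b2, Cox7b2, Cox8b and Cox8c were listed at 0 in all libraries, Cox6a2, the heart and muscle form, reached at most 0.711 FPKM and Cox7a1, of the same tissues, at most 0.361 FPKM. Ndufa4l2, known as a hypoxia-induced relative of Ndufa4, was the only one tested, at 2.05 ± 0.875 FPKM. The files hold no counts, and Atp5o, described below, was listed at 0 too, so a 0 does not show that an isoform was absent. For Cox6a2 and Cox7a1, exact two-sided permutation tests of 3 libraries against 3 gave p = 0.9 and 1 for MS against CTL, 0.6 and 0.5 for Blebb against MS and 0.6 and 0.3 for Blebb against CTL, where 0.1 is the smallest p that such a test allows.

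Complex V held the most abundant member. Atp5b, the catalytic beta subunit of the F1 head, stood at 1797 ± 128 FPKM and did not overlap in range with any other member. Atp5a1, its partner alpha subunit, was at 538 ± 43.3 FPKM, although both are present in equal number in the F1 head. The other F1 subunits Atp5c1, Atp5d and Atp5e lay between 324 and 480 FPKM. The 3 genes for the c subunit of the rotor were unequal, with Atp5g3 at 827 ± 143 FPKM, Atp5g2 at 330 ± 38.1 FPKM and Atp5g1 at 124 ± 24.7 FPKM, which are 64.3 ± 3.97%, 26.1 ± 4.31% and 9.58 ± 1.01% of their sum. The share from Atp5g2 was 33.4% in CTL replicate 1, 31.0% in Blebb replicate 2 and 29.0% in MS replicate 3, and lay between 21.1% and 27.9% in the other 6 libraries. Atp5o, the subunit that holds F1 to the stalk and is needed in every cell that makes ATP by respiration, was listed at 0 in all libraries, and so no statement on its expression can be made. In GENCODE M21 this symbol stands for 2 gene identifiers. Of 27 names in the tables that have several identifiers there, 7 were at 0 in all libraries, but of 21376 names with a single coding identifier, 6281 (29.4%) were too, and the cause was not tested.

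Summed by complex, the members differed more between libraries than between groups. Complex I summed to 4839, 5129 and 4230 FPKM in CTL replicates 1 to 3, to 5213, 5144 and 4258 FPKM in MS and to 4943, 5348 and 4695 FPKM in Blebb. Complex V summed to 6235, 7677 and 6506 FPKM in CTL, to 7648, 7373 and 5714 FPKM in MS and to 7144, 6863 and 6910 FPKM in Blebb. In both, MS replicate 3 was the lowest library of its group and the ranges of all 3 groups overlapped. The mean of complex I was 4733 ± 459 FPKM (SD, n = 3) for CTL, against 4872 ± 533 FPKM for MS and 4995 ± 330 FPKM for Blebb. Complexes II (572 to 775 FPKM), III (1326 to 1847 FPKM) and IV (4180 to 5521 FPKM) had their highest sum in MS replicate 1 or CTL replicate 2. Their lowest fell in MS replicate 3 for II and III, and in CTL replicate 3, within 1 FPKM of MS replicate 3, for IV.

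**Figure D2:**
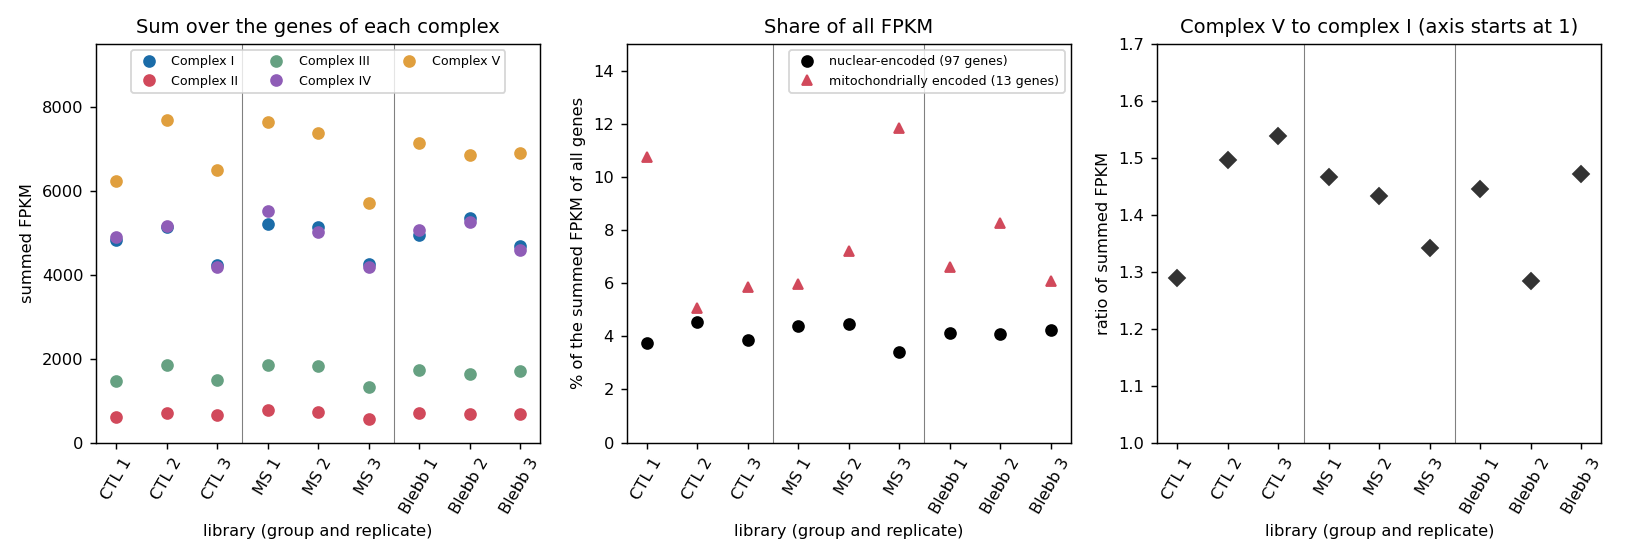
Left, summed FPKM of the members of each complex in each library. Middle, the share of the summed FPKM of all genes taken by the 97 nuclear members (circles) and the 13 mitochondrially encoded subunits (triangles), and right, the ratio of complex V to complex I, on an axis that starts at 1. The nuclear share is lowest at 3.43% in MS replicate 3 and 3.73% in CTL replicate 1, where the mitochondrial share is highest at 11.8% and 10.8%. This low place of CTL replicate 1 is one of shares, and is not kept under median-of-ratios scaling.

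All members together took 3.43% to 4.54% of the summed FPKM of a library. Their share was 3.73%, 4.54% and 3.85% in CTL, 4.39%, 4.45% and 3.43% in MS and 4.11%, 4.10% and 4.22% in Blebb. The 13 subunits encoded by mitochondrial DNA took 5.07% to 11.8%, with 10.8% in CTL replicate 1, 11.8% in MS replicate 3, 8.27% in Blebb replicate 2 and at most 7.19% in the other 6 libraries. Since the shares of a library are parts of 1 total, a lower nuclear and a higher mitochondrial share cannot be told apart, and in bulk samples fewer cells of a kind and less RNA per cell cannot be told apart. The ratio of complex V to complex I was lowest in Blebb replicate 2 at 1.28, CTL replicate 1 at 1.29 and MS replicate 3 at 1.34, and lay between 1.43 and 1.54 in the other 6. Scaled by median-of-ratios factors, the members summed to 19266, 19865 and 15899 in CTL, 19582, 21082 and 15745 in MS and 20093, 20472 and 18040 in Blebb, so that MS replicate 3 was again the lowest, while CTL replicate 3 and not CTL replicate 1 came next.

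Across libraries, most members varied together. For each member, its log2 level was set against the median of the other members over the 9 libraries, which share depth and base composition, so the correlation is a description. It was above 0.5 for 54 of the 89 tested members, with a median of 0.56 in complex I, 0.31 in complex II, 0.70 in complex III, 0.73 in complex IV and 0.69 in complex V. The same correlation was not computed for other genes, so it is not shown to be particular to the members. A single principal component took 70.4% of the variance of all tested genes, against 56.7% of that of the members. Ndufab1, the mitochondrial acyl carrier protein, and Atp5c1, the central shaft of F1, followed the median most closely (r = 0.95 each), and Sdhb reached 0.92. The correlation was below 0 for 11 members, among them 5 of the 12 assembly factors and 6 of the other 77, with Ndufaf7, a methyltransferase of complex I assembly, at -0.65 and Cox7a2l at -0.33. MS replicate 3 held the lowest value of 40 members and CTL replicate 3 that of 20, while MS replicate 1 held the highest value of 37 and Blebb replicate 2 that of 27. Of the total variance of the members, group means took 10.3%, against 13.2% over all tested genes. Means of 3 libraries take part of the variance even where groups do not differ, so neither share measures an effect of treatment. Over the 6 libraries left without CTL replicate 1, MS replicate 3 and Blebb replicate 2, the correlation was above 0.5 for 59 members and below 0 for 6, and group means took 29.9% of the variance of the members and 24.9% of that of all genes, a share that is larger with fewer libraries by construction.

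**Figure D3:**
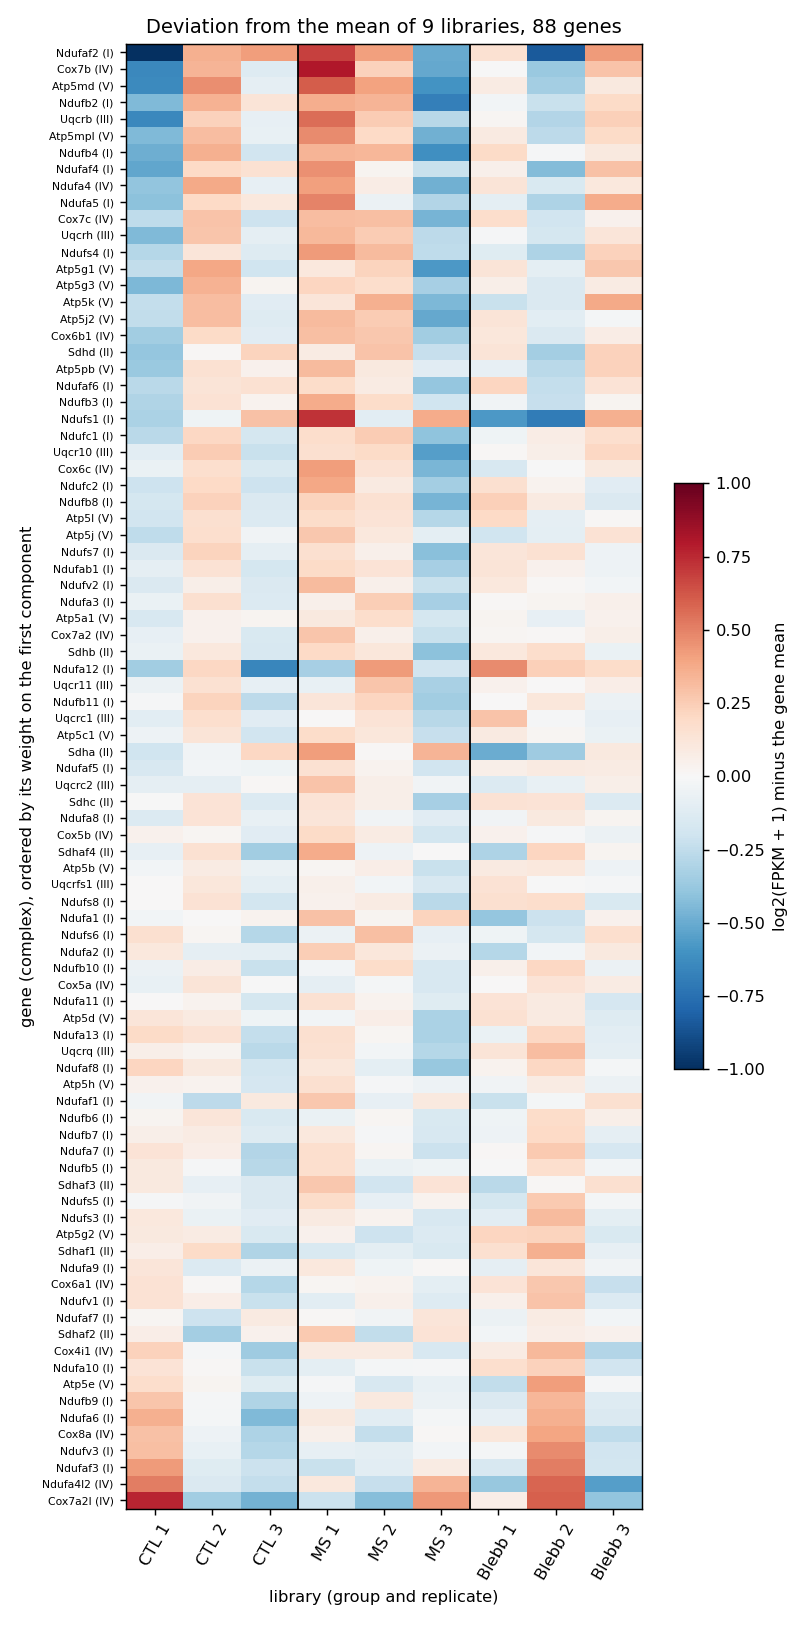
Deviation of log2(FPKM + 1) from the mean over 9 libraries for 88 of the 89 tested members (rows, complex in brackets, ordered by weight on the first principal component of the members) in each library (columns, black lines between groups). Red is above and blue below the mean, and the deviation of Ndufaf2 in CTL replicate 1 (-1.10) is drawn at the limit of -1. CTL replicate 1, MS replicate 3 and Blebb replicate 2 are mostly blue in the upper rows.

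The first principal component of the members (56.7% of their variance) set 3 libraries, 1 from each group, apart from the rest. CTL replicate 1 lay at -2.58, MS replicate 3 at -2.24 and Blebb replicate 2 at -1.65, and the other 6 between 0.10 and 2.06. Of the 89 members 66 had a positive weight. The median deviation of the members was -0.06 in CTL replicate 1, -0.20 in MS replicate 3 and 0.06 in Blebb replicate 2, beside -0.14 in CTL replicate 3. The members as a whole were therefore not low in Blebb replicate 2. Ndufaf2, an assembly factor of complex I that resembles Ndufa12, had the largest weight and was measured at 6.76, 20.3 and 21.3 FPKM in CTL replicates 1 to 3, 25.8, 21.2 and 10.7 FPKM in MS and 17.5, 8.30 and 21.4 FPKM in Blebb. Its level was thus lowest in the 3 libraries named. Cox7b, a small subunit of complex IV, was at 106, 211 and 151 FPKM in CTL, 290, 195 and 116 FPKM in MS and 166, 128 and 203 FPKM in Blebb. Atp5md, a small membrane subunit of ATP synthase, was at 186, 400 and 272 FPKM, at 442, 382 and 191 FPKM and at 306, 229 and 309 FPKM in the same order. For both, the same 3 libraries lay below all others. Ndufaf2, Cox7b and Atp5md have the largest weights on this component, so their placing goes with the weight and is no separate result.

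Cox7a2l ran the other way. It was measured at 258, 119 and 109 FPKM in CTL replicates 1 to 3, 131, 113 and 206 FPKM in MS and 159, 230 and 115 FPKM in Blebb, so that the same 3 libraries were the highest. The ratio of Cox7a2, the complex IV subunit it resembles, to Cox7a2l was 0.976 in CTL replicate 1, 1.11 in MS replicate 3 and 1.17 in Blebb replicate 2, and lay between 1.7 and 2.48 elsewhere. Ndufa4l2 followed it at 3.21, 2.72 and 3.42 FPKM in these 3 libraries and between 1.01 and 2.17 FPKM in the others. Ndufaf3, an assembly factor of complex I, did so too at 13.8, 10.6 and 14.7 FPKM, against 8.45 to 9.23 FPKM. Cox7a2l, Ndufa4l2 and Ndufaf3 have the most negative weights on the first component of the members, so their placing is no separate result either. The stress response and melanocyte sums given above were highest in the same libraries, and the correlation of library deviations with the GC content of genes ran from -0.64 in MS replicate 1 to 0.55 in Blebb replicate 1. It was 0.45 in CTL replicate 1 and 0.54 in Blebb replicate 2, but -0.16 in MS replicate 3. Over 87 members the weight on this component had a correlation of -0.40 with GC content and 0.03 with log2 transcript length. The part of stress, GC content or library quality in the pattern was not tested.

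**Figure D4:**
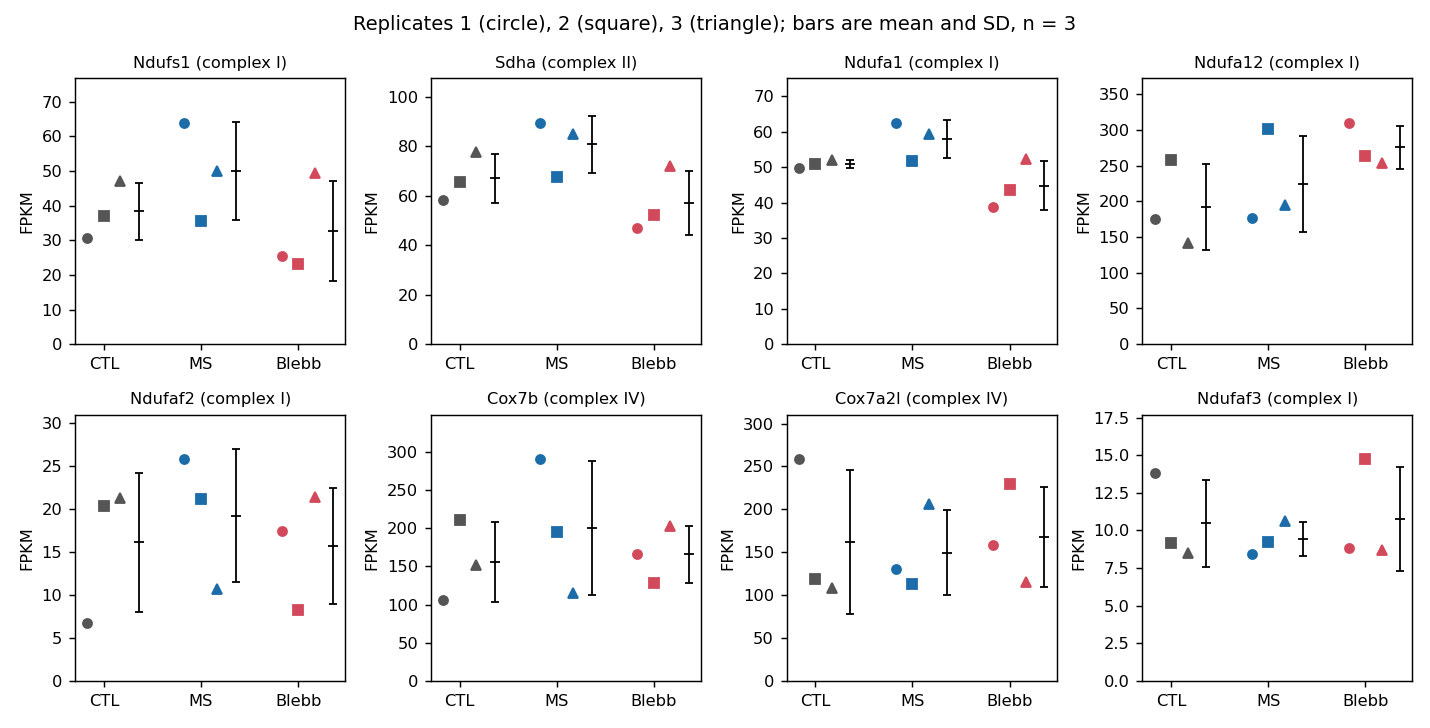
FPKM of 8 members by group, with replicate 1 as a circle, replicate 2 as a square and replicate 3 as a triangle, and the mean and SD (n = 3) as bars, on axes that start at 0. Sdha and Ndufa1 are highest in MS replicates 1 and 3, and Cox7a2l is highest in CTL replicate 1 (258 FPKM), Blebb replicate 2 (230 FPKM) and MS replicate 3 (206 FPKM).

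The first comparison asked whether cyclic straining alone changed these genes. With limma on log2(FPKM + 1) and Benjamini-Hochberg adjustment over all genes tested, 0 of 89 members had an adjusted p under 0.05 in MS against CTL (background 0%, 0 of 10109 genes; smallest adjusted p of a member 1.00), and 0 had an unadjusted p under 0.05, against a background of 0.158% (16 genes). Of the 89 log2 fold changes, 61 lay above 0 and 28 below, with a median of 0.05 (-0.0018 over all genes). The 95% interval of the log2 fold change lay within -1 and 1 for 85 members and its median half-width was 0.39. These intervals are not adjusted for the number of genes tested. Differences below 0.39, and larger ones too, could therefore be missed by the adjusted test. The median was 0.14 without CTL replicate 1, MS replicate 3 and Blebb replicate 2, 0.16 with MS replicate 3 alone left out and -0.03 with MS replicate 1 alone left out. With the first 3 left out, 82 members lay above 0 and 7 below, and the median over all genes was -0.05, whereas without MS replicate 1 alone 37 lay above 0 and 52 below. In the fit that lacked MS replicate 3, 1 member had an unadjusted p under 0.05, and the background of that fit is not given here.

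The largest differences depended on single libraries. Ndufs1 stood at 30.6, 37.1 and 47.2 FPKM in the CTL libraries and 63.9, 35.7 and 50.0 FPKM in those of MS, and its log2 fold change of 0.36 (SE 0.31) became 0.16 without MS replicate 1. Uqcrb, a ubiquinone-binding subunit of complex III, stood at 81.6, 150 and 121 FPKM in the CTL libraries and 189, 153 and 105 FPKM in those of MS, and its log2 fold change of 0.34 (SE 0.27) became 0.10 without CTL replicate 1. In both genes the groups overlapped, and removing the trend with GC content within libraries left Uqcrb at 0.12. On the other side stood Ndufaf8 at -0.16 (SE 0.16) and Atp5d, the delta subunit of F1, at -0.15 (SE 0.14). They stood at -0.03 and -0.04 without MS replicate 3 and at -0.08 and -0.04 with the GC trend removed, and without the 3 libraries that stood apart Ndufaf8 was at 0.05 and Atp5d at -0.0034. A list of 17 central subunits, most of them catalytic or bearing a cofactor but also holding Uqcrc1, Cox4i1 and Cox5a, lay on both sides of 0, with 8 above and 9 below and a median of -0.02. By complex the medians were 0.04 in I, 0.11 in II, -0.01 in III, 0.05 in IV and 0.05 in V. In 0 members did all MS libraries lie above all CTL libraries (background 0.524%), and in 0 below (background 2.64%).

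The second comparison set Blebb against strained cells. By the study's methods these differ in blebbistatin, and by the labels in straining too. In Blebb against MS, 0 of 89 members had an adjusted p under 0.05 (limma with Benjamini-Hochberg adjustment, background 0%), and 2 members, Sdha and Ndufa1, had an unadjusted p under 0.05, against a background of 1.25% (126 genes). Sdha (chr13:74322254-74350280, minus strand, GRCm38) had 89.6, 67.7 and 85.1 FPKM in MS replicates 1 to 3, against 47.2, 52.3 and 71.9 FPKM under blebbistatin. Blebb replicate 3 lay above MS replicate 2, and the log2 fold change was -0.51 (SE 0.19, 95% interval -0.93 to -0.08, adjusted p = 0.897). Ndufa1, a small membrane subunit of complex I (chrX:37187588-37191163, minus strand), had 62.6, 51.9 and 59.5 FPKM in MS replicates 1 to 3, against 38.7, 43.6 and 52.2 FPKM under blebbistatin. Its groups overlapped by the same pair of libraries, with a log2 fold change of -0.37 (SE 0.14, 95% interval -0.68 to -0.07, adjusted p = 0.897). Neither passed the adjusted test, and without CTL replicate 1, MS replicate 3 and Blebb replicate 2 the log2 fold changes were -0.41 and -0.34 and 0 members had an unadjusted p under 0.05. The count was also 0 without MS replicate 1, MS replicate 3, Blebb replicate 1 or Blebb replicate 2 alone, and 4 without Blebb replicate 3. The background of 1.25% belongs to the fit of all libraries, and that of the fits with libraries left out is not given here.

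Ndufs1 (chr1:63143596-63176833, minus strand) had the lowest log2 fold change. Its Blebb libraries held 25.5, 23.2 and 49.3 FPKM, beside the 63.9, 35.7 and 50.0 FPKM given above for MS, and Blebb replicate 3 lay close to MS replicate 3. The log2 fold change was -0.64 (SE 0.31, limma adjusted p = 0.897), and -0.44 without Blebb replicate 2. The highest values were 0.33 (SE 0.25) for Ndufa12, a subunit at the matrix arm of complex I, and 0.28 (SE 0.18) for Sdhaf1, which helps to build the iron-sulfur centres into Sdhb. Leaving out MS replicate 1 put Ndufa12 at 0.18 and leaving out MS replicate 2 put it at 0.56, while Sdhaf1 was at 0.17 without Blebb replicate 2. The MS libraries held 5.13, 5.37 and 5.13 FPKM of Sdhaf1 and the Blebb libraries 6.60, 7.68 and 5.44 FPKM. For Cox5a, a matrix-side subunit of complex IV, they held 318, 334 and 303 FPKM and 339, 372 and 357 FPKM. These were the 2 members of 89 whose Blebb libraries all lay above all MS libraries (background 3.05%), in both by a narrow gap, while 0 lay wholly below (background 0.683%). Over all members 47 lay above 0 and 42 below, with a median of 0.03 (-0.08 without MS replicate 3, 0.10 without MS replicate 1 and -0.12 without the 3 libraries that stood apart). Without those 3, 14 lay above 0 and 75 below, with a median over all genes of -0.01, and without MS replicate 3 alone 23 lay above 0. The 17 central subunits had 12 above and 5 below with a median of 0.09. By complex the medians were 0.04, -0.03, 0.08, -0.0028 and -0.01 from I to V. Of the 2 subunits of complex II in its matrix part, Sdha thus lay at -0.51 and Sdhb at 0.11 (SE 0.17).

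**Figure D5:**
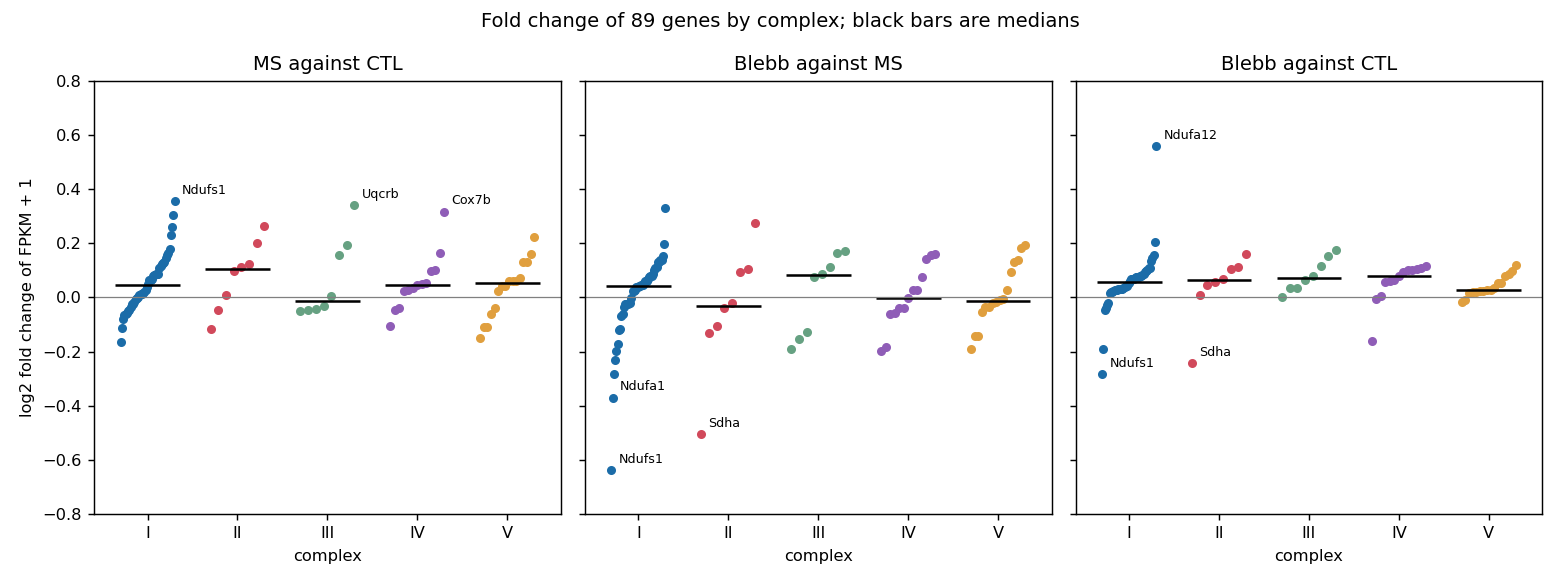
Log2 fold change of FPKM + 1 for each of 89 tested members by complex in the 3 comparisons, where points are genes and black bars medians. Most points lie between -0.4 and 0.4, and Ndufs1, Sdha and Ndufa12 lie farthest from 0, none with an adjusted p under 0.05.

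The third comparison set Blebb against CTL, which differ in blebbistatin and, by the study's methods, in straining too. It shares its libraries with the other comparisons, so their values are not independent of each other. Here, 0 of 89 members had an adjusted p under 0.05 (limma with Benjamini-Hochberg adjustment, background 0%; smallest adjusted p 1.00) and 0 an unadjusted p under 0.05, against a background of 0.089% (9 genes). The values lay mostly just above 0, with 78 above and 11 below and a median of 0.06 (-0.01 over all genes). The median was 0.01 without CTL replicate 3, 0.12 without CTL replicate 2 and 0.03 without the libraries that stood apart. In the fit without Blebb replicate 3, 3 members had an unadjusted p under 0.05, and the background of that fit is not given here. The number above 0 was 55 without the libraries that stood apart, where the median over all genes was -0.04, and 48 without CTL replicate 3. By complex it was 0.06 in I, 0.06 in II, 0.07 in III, 0.08 in IV and 0.03 in V, and 15 of the 17 central subunits lay above 0. The 95% interval lay within -1 and 1 for 87 members.

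Ndufa12 (chr10:94198720-94221443, plus strand) had the largest difference. The CTL libraries held 176, 258 and 141 FPKM and the Blebb libraries 310, 263 and 253 FPKM, with 301 FPKM in MS replicate 2 and 177 and 195 FPKM in MS replicates 1 and 3. CTL replicate 2 lay between the Blebb libraries. Its log2 fold change was 0.56 (SE 0.25, 95% interval -0.01 to 1.14, limma adjusted p = 1.00), and 0.36 without CTL replicate 3. Ndufb4, another accessory subunit of complex I, followed at 0.20 (SE 0.28), which was 0.01 without CTL replicate 1 and 0.43 without CTL replicate 2. Ndufs1 at -0.28 (SE 0.31) and Sdha at -0.24 (SE 0.19) had the lowest values. Ndufs1 lay at -0.09 without Blebb replicate 2 and -0.61 without Blebb replicate 3, and Sdha at -0.12 without Blebb replicate 1 and -0.42 without Blebb replicate 3. Ndufaf5, an assembly factor of complex I, lay between 16.7 and 18.5 FPKM under CTL and between 19.7 and 20.2 FPKM under blebbistatin, and was the 1 member whose Blebb libraries all lay above all CTL libraries (background 0.93%). In 0 members did they all lie below (background 1.15%).

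A test across all 3 groups, limma's moderated F test, called 0 of 89 members and 0 of 10109 genes at an adjusted p under 0.05 (background 0%). At an unadjusted p under 0.05 it called 0 members and 26 genes, and Ndufa1 had the smallest F test value of the members (limma unadjusted p = 0.0647, adjusted p = 1.00).

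Lists of nuclear genes that work with the members had medians near 0 in the fit of all libraries, and their medians with libraries left out are not given here. Of their genes, 0 had an adjusted p under 0.05 in any comparison (limma), but so did 0 of all 10109 genes tested. The 34 tested assembly factors outside the rule, such as those that insert copper and heme into complex IV, had median log2 fold changes of 0.02, 0.03 and 0.05 in MS against CTL, Blebb against MS and Blebb against CTL. The 13 enzymes of the citric acid cycle had 0.03, 0.02 and 0.02, and the 12 transcription regulators, among them Nrf1, Gabpa, Yy1 and Tfam, 0.04, -0.06 and -0.03. Single genes lay farther out, such as Dld, a subunit of the 2-oxo acid dehydrogenases, at 0.48 in MS against CTL and -0.66 in Blebb against MS, and Gabpa at -0.50 in Blebb against MS. The 78 mitochondrial ribosomal protein genes had 0.05, 0.05 and 0.08, and 67 of them lay above 0 in Blebb against CTL. The 83 tested names starting with Rpl or Rps, mostly cytosolic ribosomal proteins, had 0.07, 0.01 and 0.07, and 74 lay above 0 in Blebb against CTL. Their single values reached 0.71 for Rpl21 in MS against CTL and -1.07 for Rpl17 in Blebb against MS, in a family whose many near-identical copies make the counting uncertain. Without the 3 libraries that stood apart, 60 of the 78 and 79 of the 83 lay above 0 in Blebb against CTL. Values just above 0 in that comparison were therefore seen in other abundant gene families too, and whether the members differ from these was not tested.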

How the data were processed

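RNA was extracted with Trizol, and libraries were prepared with a SMARTer mRNA kit, per the labels. The authors deposited 1 FPKM value per gene and library, already scaled by gene length and mapped fragments. The builds GRCm38 and mm10 stand in the submitters' processing notes, while the aligner, the counter and filters are not given in the sources used here. In CTL replicate 1 the value column carries the sample's name in place of the unit and was taken as FPKM. Low values showed no common step, so the depth is unknown and no count test was run.

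Groups came from the sample titles. All genes whose mean reached 1 FPKM were fitted as log2(FPKM + 1) over the 9 libraries in limma 3.58.1 (R 4.3.3) with lmFit and eBayes with a trend, two-sided, with Benjamini-Hochberg adjustment and a threshold of 0.05. The fit was tested on simulated data with independent noise for each gene and changes larger than those of the members. That setting lacks libraries that stand apart, so it does not show how well the fit finds small changes in these data. Fold changes on this scale understate those of low genes. For members below that minimum, FPKM were compared in exact permutation tests (scipy 1.17.1). GC content, length and gene positions came from the longest transcript of GENCODE M21 (95 of 97 members matched), and promoters from RefSeq. Of 1 member no value of its own is reported here. RefSeq held no promoter here for Atp5a1, Atp5mpl, Cox4i1, Cox4i2, Cox6a2, Cox6c, Cox8c, Ndufa2, Ndufa4l2, Ndufaf6, Ndufb9, Ndufs1, Sdhc, Uqcrb, Uqcrc2 and Uqcrq.

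The name rule for the members, the lists and the left-out libraries were chosen with earlier results of these data known. Genes named by rule were the 2 highest members of each complex, 17 central subunits (most of them catalytic or bearing a cofactor), in each comparison the 2 largest rises and 2 largest falls, and every member under the minimum. Genes described by library pattern, by ratio, by correlation or by groups that do not overlap were named after their values were seen. The 7 further lists hold mitochondrially encoded subunits, other assembly factors, electron carriers, regulators, citric acid cycle enzymes, integrated stress response genes and ribosomal proteins. The alternatives tried were no minimum or one of 5 FPKM, a pseudocount of 0.1, quantile normalization or median-of-ratios factors, a fit without the trend, a fit on the groups compared alone, a replicate block, a GC trend removed by loess and libraries left out.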

Additional observations from a re-analysis of the deposited data

How the results depend on the processing

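In every alternative run, the number of members with an adjusted p under 0.05 stayed at 0 in each comparison and in the F test. The number with an unadjusted p under 0.05 moved, and the share of all genes in the same fits is not given beside it here. In Blebb against MS it was 2, and it was 1 in a fit of the groups compared alone, 1 without CTL replicate 1 and Blebb replicate 2, 0 with MS replicate 3 left out as well, and between 0 and 4 (without Blebb replicate 3) when single libraries were left out. In Blebb against CTL it was 0, 1 in a fit of the groups compared alone and between 0 and 3 (without Blebb replicate 3). In MS against CTL it was 0, and between 0 and 1 (without MS replicate 3). The replicate block gave 0 adjusted calls and 0, 3 and 1 unadjusted ones in MS against CTL, Blebb against MS and Blebb against CTL. Over 9 pairs of libraries with the same replicate number, the r of their deviations ran from -0.78 to 0.84. The labels do not say what a number shares, so whether the numbers pair the samples is unknown. The median log2 fold change of the members in Blebb against MS was -0.12 without CTL replicate 1, MS replicate 3 and Blebb replicate 2, and ranged from -0.08 (without MS replicate 3) to 0.10 (without MS replicate 1). In MS against CTL it ranged from -0.03 (without MS replicate 1) to 0.16 (without MS replicate 3), and in Blebb against CTL from 0.01 to 0.12. The number of members whose groups do not overlap was 1 in MS against CTL under both median-of-ratios factors and quantile normalization, 0 in Blebb against MS under quantile normalization and 2 in Blebb against CTL under median-of-ratios factors. The share of all genes under these settings is not given here, so these counts have no background beside them. Of the single genes named, Ndufaf8 turned from -0.16 to 0.051 in MS against CTL without CTL replicate 1, MS replicate 3 and Blebb replicate 2, and Ndufa12 in MS against CTL ranged from -0.00092 (without MS replicate 2) to 0.47 (without CTL replicate 2). The numbers of members above 0 with libraries left out were computed after the data had been seen. The cause of these moves was not tested beyond the smaller number of libraries. The median unadjusted 95% interval reached 0.39 to each side, with 3 libraries a group and unknown depth. Small differences of a single member therefore cannot be seen here, and larger ones can miss the adjusted threshold.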

Other observations

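The partner subunits encoded by mitochondrial DNA varied widely between libraries. Mt-Co1, the catalytic subunit of complex IV, was listed at 18582, 5034 and 5840 FPKM in CTL replicates 1 to 3, at 5598, 6094 and 15415 FPKM in MS and at 7975, 13059 and 5558 FPKM in Blebb. The 3 highest values fell in CTL replicate 1, MS replicate 3 and Blebb replicate 2, the libraries in which Cox7a2l was highest. Mt-Atp8, a small subunit of ATP synthase, was at 1318, 2001 and 2165 FPKM in CTL, 2629, 3117 and 2730 FPKM in MS and 2159, 1222 and 2106 FPKM in Blebb. It was lowest in CTL replicate 1 and Blebb replicate 2 and not in MS replicate 3, where mt-Co1 was high as well. Over the 13 genes, MS against CTL had a median log2 fold change of 0.32 (10 above 0), beside -0.30 in Blebb against MS and 0.03 in Blebb against CTL, with 3, 3 and 0 genes at an unadjusted p under 0.05 and 0 at an adjusted p under 0.05 (limma with Benjamini-Hochberg adjustment). Of all genes tested, 0.158%, 1.25% and 0.089% had an unadjusted p under 0.05 in these comparisons. Without CTL replicate 1, MS replicate 3 and Blebb replicate 2 the medians were 0.31 (13 above 0), -0.09 and 0.18, and with MS replicate 3 alone left out they were -0.02 in MS against CTL and 0.04 in Blebb against MS. The 6 electron carriers outside the rule, among them Cyc1 and Cycs, had medians of 0.07, -0.05 and 0.08 and 0 genes at either threshold. The 12 integrated stress response genes had medians of -0.0048, 0.20 and 0.16, all of them above 0 in Blebb against CTL and 0 with an unadjusted p under 0.05. Their summed level was highest in CTL replicate 1, MS replicate 3 and Blebb replicate 2, although Atf3 was highest in MS replicate 1 and Psat1 and Phgdh in Blebb replicate 1. Without CTL replicate 1, MS replicate 3 and Blebb replicate 2 the medians were 0.09, 0.14 and 0.20 with 11 above 0 in Blebb against CTL. Without Blebb replicate 2 alone they were -0.24 in Blebb against MS and -0.23 in Blebb against CTL, where 3 lay above 0. The values of both lists without libraries were computed after seeing the data.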
